A study of Mus musculus with 42 samples.

Results

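The comparison described here is between the distal and the proximal colon of mice homozygous for the P209T point mutation of Mtg16 (Cbfa2t3), measured by RNA sequencing of isolated crypts. It takes every baseline library of that genotype, 4 distal and 2 proximal, 6 of the 42 libraries of the series, and asks which genes differ between the segments. The study followed MTG16 in colonic differentiation, colitis and colitis-associated tumors, and its other libraries come from mice without MTG16, from WT mice, from colitis and from tumors. The homozygous mutants are called T/T here.

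All mice were on the C57/BL6 background, were at least 8 weeks old and, at baseline, had no treatment. The P209T allele was made by CRISPR and replaces a proline of MTG16 with a threonine, which weakens the binding of MTG16 to E proteins in every cell that makes it, so that all 6 libraries lack a normal allele. T/T mice and their WT littermates (3 distal and 2 proximal libraries) came from heterozygous crosses. Mtg16-/- mice, called null, were kept as a separate colony with WT mice of its own. The proximal segment was the 5 cm next to the cecum and the distal segment the 5 cm next to the anus, and crypts were freed from both with EDTA. The labels give no sex and do not state whether a proximal and a distal library came from the same mouse, so the p-values measure the spread between these libraries. The number that opens a library name, called its name series, is 5094 in every T/T distal library and 5582 in every T/T proximal library. The labels do not say what it stands for, and the segment and the name series cannot be told apart within T/T.

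MTG16 is a corepressor with no DNA binding of its own. It is brought to DNA by partners such as the E proteins E2A, HEB and E2-2, basic helix-loop-helix factors that bind E boxes and that Id proteins keep from DNA. The proximal and distal colon differ in position-specifying Hox genes, in mucus, in salt, water and bile acid transport and in hormones, and these are the gene groups described below.

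Between 38715663 and 44798151 reads per library were assigned to genes. Values are rescaled counts, that is the normalized counts of the authors multiplied by 1 TMM factor per library (0.949 to 1.06) so that the columns of both tables share a scale. Genes with a mean of at least 10 were tested with limma on log2(rescaled count + 1), a scale on which the change of low genes is understated, and p-values were adjusted by Benjamini-Hochberg over all 13759 genes tested. Differences are distal minus proximal on that scale, given as the difference ± its SE. An exact permutation test of 4 against 2 libraries has 15 groupings, and the doubled p of a single tail cannot fall under 0.133. In the log2 values the distal libraries correlated at r = 0.966 to 0.989 with each other, the proximal libraries at 0.984, and libraries of different segments at 0.886 to 0.92. In bulk libraries, fewer cells of a type and less RNA per cell cannot be told apart.

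Some libraries stood apart. Distal replicate 4 held skeletal muscle transcripts (Tnnc2 537, at most 3.11 in the other libraries) and pancreatic transcripts (Amy2a5 112, 12.4 in distal replicate 2 and 0 in the others), and proximal replicate 2 held the kidney transcripts Kap (165) and Umod (81.2), which were at 0 elsewhere. The summed rescaled count of red cell genes was 1397 in distal replicate 4 and 1204 in proximal replicate 2, against 145 to 193 in the other 4. The same pair of libraries was high in Tef, a transcription factor with a daily rhythm (5887 and 5594, against 368 to 1116), and low in Arntl, the clock activator BMAL1 (544 and 308, against 1327 to 2668). Distal replicate 1 was low in the longest transcripts, compared with the mean of the other distal libraries. Its median deviation was -0.17 (log2) in the longest of 4 equal groups of genes by length and 0.18 in the shortest. Distal replicates 1 and 3 had Xist (2078 and 27785) and almost no Y-linked transcripts, whereas the other 4 libraries had Y-linked transcripts. The defining epithelial marker Epcam was at 70335 to 91266 in all 6. Of 12 epithelial markers 3 were called higher and 2 lower distally, beside 22.1% of all genes called. Among them were Cdh1 (0.50, adjusted p = 0.0124) and Krt20, at 37683 to 60260 distally and 83423 and 86344 proximally (-0.88, adjusted p = 0.0189). Of 5 tested markers of anal squamous epithelium 1 was higher, Krt13, at 14.4 to 21.6 distally and 0 in both proximal libraries, and 1 lower, Dsg3, and Krt14 was at 10.1 to 23.01 in all 6.

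**Figure D1:**
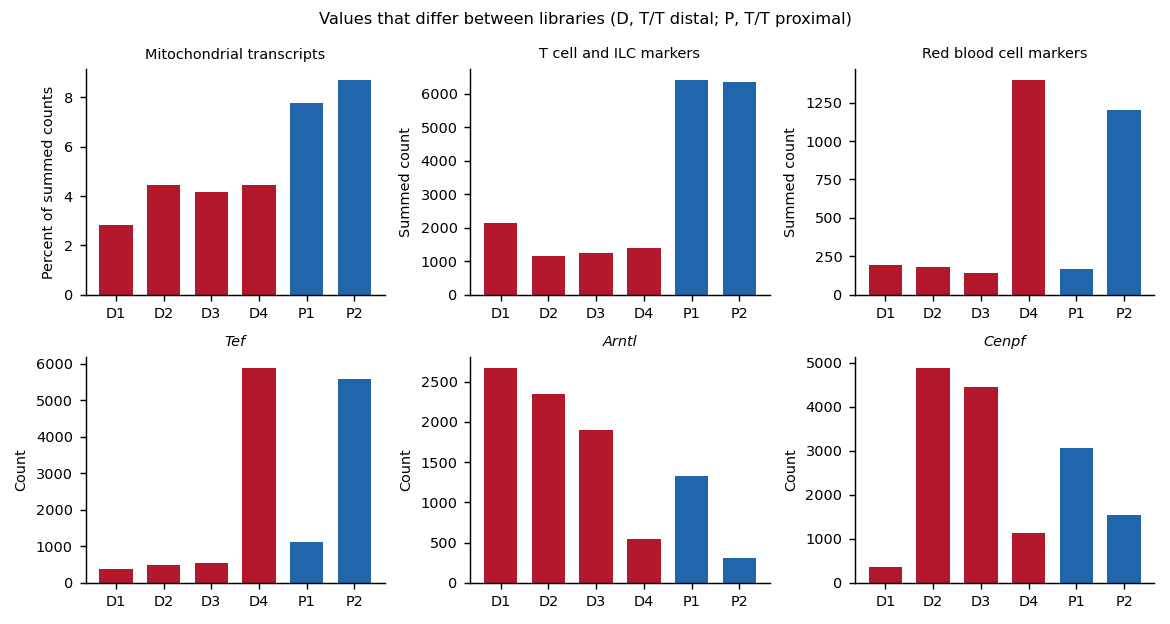
Technical and cellular measures of the 6 T/T libraries, 1 bar per library (D, distal replicates; P, proximal replicates) and 1 panel per measure: the percent of rescaled counts from mitochondrial genes, and the rescaled counts of T cell and ILC markers (sum), red cell genes (sum), Tef, Arntl and Cenpf. Mitochondrial and T cell measures separate the segments (2.83 to 4.46% against 7.78 and 8.70%, and 1157 to 2152 against 6407 and 6357), while the red cell and clock measures separate distal replicate 4 and proximal replicate 2 from the rest.

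The segments differed widely. Of 13759 genes tested, 1614 were higher and 1433 lower in the distal crypts at an adjusted p under 0.05, which is 22.1% of genes (11.7% higher and 10.4% lower), and 806 and 985 of these changed at least 2-fold. The median difference over all genes was 0.03. For 49.9% of genes the 4 distal and 2 proximal values did not overlap. Left as deposited, with no common scaling, the tables gave a median of -0.08 and turned the split into 1296 higher and 1771 lower. Leaving out proximal replicate 1 reduced the calls to 671 and 583, and leaving out proximal replicate 2 to 729 and 557. In both cases a single proximal library is left and is assumed to vary like the distal ones. Without distal replicate 4 and proximal replicate 2, the libraries with the most transcripts of other organs, 494 and 402 genes were called. On whole reads recovered from the normalized counts, edgeR's quasi-likelihood test called 1480 and 1498 genes and DESeq2 1824 and 1892, and 95.3% of limma's calls were also made, in the same direction, by edgeR.

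Of Mtg16, its paralogs, the E proteins and the Id proteins, limma called 1 gene between the T/T segments, the inhibitor gene Id1. Cbfa2t3, which encodes MTG16, was at 2041, 1843, 1518 and 2229 in the distal libraries and 2413 and 2836 in the proximal libraries (-0.47 ± 0.17, adjusted p = 0.104). Every proximal value lay above every distal value, and the segments did not overlap in 49.9% of all genes. The difference did not pass the test, and the level of a gene that carries a point mutation is no check of the genotype. The paralogs Cbfa2t2 (MTGR1) and Runx1t1 (MTG8) overlapped between segments, with differences of -0.04 and -0.74 and adjusted p of 0.816 and 0.463. Of the 3 family members, 0 were called and 1 had an unadjusted p under 0.05. Cbfa2t3 was called in DESeq2 on recovered reads (-0.51, adjusted p = 0.048) and in the limma fit that included the WT littermates (-0.48, adjusted p = 0.0244), and in edgeR it was not. In the WT littermates themselves Cbfa2t3 was at 954, 1005 and 1064 distally and 1959 and 1983 proximally (-0.97 ± 0.15, adjusted p = 0.00102). The difference between the T/T and WT segment effects was not called by limma for Cbfa2t3 or any other gene. Leaving out distal replicate 3 turned the sign of the uncalled Cbfa2t2 difference (0.0073).

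Of the 7 E and Id proteins, 1 rose and 0 fell, beside the 22.1% of all genes called. Id1, an inhibitor of E proteins, was at 13209.9, 11503, 9841 and 14284 in the distal libraries and 7709 and 5958 in the proximal libraries (0.83 ± 0.18, adjusted p = 0.0201). The segments did not overlap, but the call rested on both proximal libraries, with an adjusted p of 0.0542 without replicate 1 and 0.159 without replicate 2. Tcf3, which encodes E2A, was at 3007, 2400.2, 2193 and 2349 distally and 1759.9 and 1788 proximally (0.48 ± 0.14, adjusted p = 0.0576), and Tcf12, which encodes HEB, at 1357, 2339, 2259 and 2179 distally and 3062 and 3113 proximally (-0.63 ± 0.23, adjusted p = 0.103). The segments were apart in both genes, as in 49.9% of all genes, in opposite directions and without passing the test. Distal replicate 1 was the lowest in Tcf12, and without it both genes were called, at adjusted p = 0.0195 and 0.00855. Both were also called in the fit that included the WT littermates (adjusted p = 0.0111 and 0.0365), and Tcf3 in DESeq2 (adjusted p = 0.0347). Tcf4, which encodes E2-2, overlapped (0.26, adjusted p = 0.651) but was called without distal replicate 1 (adjusted p = 0.0268). The inhibitors Id2, Id3 and Id4 had differences of -0.40, -0.47 and -0.21, with adjusted p of 0.0692, 0.158 and 0.641, and Id2 was called under 6 alternatives: in DESeq2 (adjusted p = 0.00803), in the fit with the WT littermates (adjusted p = 0.01995), with the columns as deposited (adjusted p = 0.0216), under median-of-ratios scaling (adjusted p = 0.0433), under bridge scaling through the WT libraries (adjusted p = 0.0307) and without distal replicate 1 (adjusted p = 0.027). Id3 was called in the fit with the WT littermates (adjusted p = 0.0431).

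The genes with the largest differences were near absent in 1 segment. Hoxb13, the homeobox gene of the hindmost position, was at 20854, 16996, 15422 and 18439.5 in the distal libraries and 0 and 10.5 in the proximal libraries (12.36 ± 0.85, adjusted p = 0.000283). Atp12a, a potassium-dependent proton pump of the colon, was at 30638, 34457, 38328 and 25876 distally and 5.05 and 7.64 proximally (12.11 ± 0.21, adjusted p = 4.83e-06). Tgm3, a transglutaminase, was at 63172, 50274, 49085 and 39073 distally and 9.09 and 25.8 proximally (11.56 ± 0.38, adjusted p = 3.93e-05). All 3 were found at high levels in each distal library and at no more than 25.8 in a proximal one. St8sia5, a sialyltransferase of gangliosides, was at 1648, 1259, 2209 and 935 distally and 2.02 and 0 proximally, a ratio of 1559 that rests on 2 proximal reads (95% counting interval 432 to 12880). The membrane protease gene Tmprss13 was at 804, 651, 873 and 466 distally and 1.01 and 0 proximally, with 1 proximal read (ratio 1438, 95% counting interval 258 to 56820). These intervals cover counting error only. Trpv6, an epithelial calcium channel, was at 3223, 1192, 1812 and 2909 distally and 0 and 7.64 proximally (9.50 ± 0.85, adjusted p = 0.000666). The mucosal pentraxin Mptx1 was at 59493, 59908, 66348 and 31646 distally and 226 and 77.4 proximally (8.61 ± 0.47, adjusted p = 0.00014), with distal replicate 4 the lowest of its segment and still far above both proximal libraries.

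The other 3 genes chosen in this direction were AI854703 (9.24), Nxpe4 (8.66) and 1 of the Ensembl IDs that carry the symbol Pakap, which was at 541, 339, 503 and 256 distally and at 0 in both proximal libraries. Against a floor of 3 reads per library that is at least 139-fold higher distally. A second, overlapping ID of the same symbol was at 2496, 2363, 3322 and 2841 distally and 267 and 427 proximally (3.01 ± 0.22, adjusted p = 0.000361), and reads could have been split between the IDs.

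In the other direction, Reg3b, an antibacterial C-type lectin, was at 33.3, 31.1, 299 and 236 in the distal libraries and 183710.0 and 132554 in the proximal libraries (-10.70 ± 1.03, adjusted p = 0.000887). Slc51a, a subunit of the transporter that moves bile acids out of the cell into blood, was at 0, 1.04, 1.92 and 2.07 distally and 3685 and 4969.6 proximally (-11.02 ± 0.51, adjusted p = 8.4e-05). Osr2, a zinc finger factor of embryonic patterning, was at 0, 3.11, 1.92 and 0 distally and 4539 and 3896 proximally (-11.14 ± 0.67, adjusted p = 0.000176). In all 3 each proximal library was far above each distal one.

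Nts, which encodes the hormone neurotensin, was at 0, 0, 0 and 3.11 distally and 1928 and 965 proximally, its 3 distal reads all in replicate 4 (ratio 1949, 95% counting interval 666 to 9458). Abca12, a lipid transporter, was at 9.01, 2.07, 2.88 and 59.01 distally and 13066 and 11943 proximally (-10.41 ± 1.15, adjusted p = 0.00149). Distal replicate 4 had the most Abca12 of its segment and stayed far below the proximal libraries. Other genes of this set were the glucuronosyltransferase gene Ugt2b5 (-10.27), Mal (-9.94), the proprotein convertase gene Pcsk5 (-9.80) and St3gal5 (-9.24), which encodes the synthase of ganglioside GM3. Their adjusted p-values were between 0.000206 and 0.0041.

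**Figure D2:**
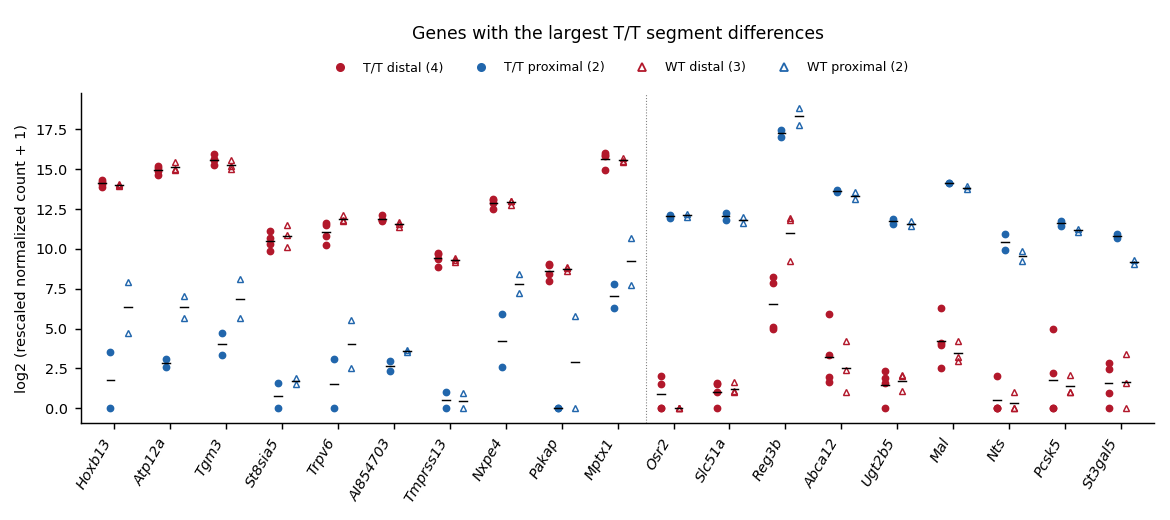
The 10 genes with the largest difference in each direction (horizontal axis, higher distally to the left of the dotted line, with 1 of the lower genes not shown), as log2(rescaled count + 1) on the vertical axis, 1 point per library with the mean as a line, for T/T distal (n = 4), T/T proximal (n = 2), WT distal (n = 3) and WT proximal (n = 2). The T/T segments do not overlap in any of the genes shown, and the 2 WT littermate proximal libraries hold more of several distal genes than T/T proximal libraries do (Hoxb13 25.95 and 243 against 0 and 10.5), whereas the WT proximal libraries of the null colony, not plotted, had Hoxb13 at 24.1 and 13.02.

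Because MTG16 reaches DNA through E proteins at E boxes (CANNTG), and CDX factors bind the letters TTTATG, the promoters of 5 genes are shown, Tgm3, Reg3b and Slc51a from these sets and B3gnt7 and Hoxb8 from the groups described below, each from 250 bases before to 50 bases after the start of the gene, 5′ to 3′, from RefSeq on build GRCm38.p6. Capitals mark CANNTG in the first 4 and TTTATG or its complement CATAAA in Hoxb8, a proximal Hox gene described below. B3gnt7, which lengthens mucin glycans and was higher distally, lies at chr1:86302971-86303270 on the plus strand, Tgm3 at chr2:130012090-130012389 on the plus strand, Reg3b at chr6:78370635-78370934 on the plus strand, Slc51a at chr16:32487830-32488129 on the minus strand and Hoxb8 at chr11:96281655-96281954 on the plus strand.
B3gnt7: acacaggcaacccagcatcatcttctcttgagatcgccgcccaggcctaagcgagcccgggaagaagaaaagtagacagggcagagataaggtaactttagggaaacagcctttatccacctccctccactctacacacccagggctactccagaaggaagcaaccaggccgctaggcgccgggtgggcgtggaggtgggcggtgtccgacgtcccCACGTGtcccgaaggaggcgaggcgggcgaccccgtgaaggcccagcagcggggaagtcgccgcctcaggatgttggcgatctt
Tgm3: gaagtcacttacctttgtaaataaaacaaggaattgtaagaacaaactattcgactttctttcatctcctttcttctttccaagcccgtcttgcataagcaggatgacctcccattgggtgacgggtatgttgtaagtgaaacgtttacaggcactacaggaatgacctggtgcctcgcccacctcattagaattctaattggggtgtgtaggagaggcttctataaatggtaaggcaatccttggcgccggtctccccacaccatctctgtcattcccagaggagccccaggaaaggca
Reg3b: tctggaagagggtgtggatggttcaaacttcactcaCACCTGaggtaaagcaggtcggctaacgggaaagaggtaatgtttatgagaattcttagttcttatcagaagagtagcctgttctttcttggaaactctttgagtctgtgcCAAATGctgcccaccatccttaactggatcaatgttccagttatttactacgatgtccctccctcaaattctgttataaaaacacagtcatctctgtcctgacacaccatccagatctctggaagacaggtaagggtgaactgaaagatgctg
Slc51a: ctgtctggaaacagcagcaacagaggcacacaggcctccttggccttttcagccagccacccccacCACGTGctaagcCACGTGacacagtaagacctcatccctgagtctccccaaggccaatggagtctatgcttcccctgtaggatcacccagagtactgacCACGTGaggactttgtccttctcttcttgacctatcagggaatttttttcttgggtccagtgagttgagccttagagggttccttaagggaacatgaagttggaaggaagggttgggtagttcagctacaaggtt
Hoxb8: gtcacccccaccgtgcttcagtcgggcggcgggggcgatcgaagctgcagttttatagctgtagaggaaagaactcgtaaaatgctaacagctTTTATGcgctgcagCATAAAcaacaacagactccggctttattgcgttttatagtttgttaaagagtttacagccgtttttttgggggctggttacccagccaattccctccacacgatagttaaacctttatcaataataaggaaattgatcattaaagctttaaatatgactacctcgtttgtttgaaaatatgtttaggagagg

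B3gnt7 held 1 E box, which is of the CACGTG form, Tgm3 held 0, Reg3b 2, and Slc51a 3 that are all CACGTG. Reg3b also held 1 TTTATG or CATAAA, and Hoxb8 2. Of 32851 RefSeq promoters of this length, 72.3% held CANNTG on either strand, which reads the same on both. The share was 68.4% for genes higher distally, 71.6% for genes lower distally and 63.7% for genes not called. For CACGTG the shares were 8.8%, 7.6% and 9.8%, beside 7.2% of all promoters, and for CAGCTG 17.9%, 18.3% and 14.8%, beside 16.3%. TTTATG or CATAAA stood in 8.3%, 9.2% and 6.4%, beside 11.9% of all. A match is a description of letters in this window and not a bound site.

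Hox genes, which set position along the gut, split by cluster and number. Of 23 tested, 7 rose and 11 fell distally, with a median of -0.22 beside 0.03 over all genes. The higher genes were Hoxb13 and 6 genes of the A cluster, and the lower genes were 8 anterior genes of the B cluster (Hoxb2 to Hoxb9) and 3 of the D cluster (Hoxd3, Hoxd4 and Hoxd8). Hoxb8 was at 2.703, 3.11, 8.63 and 7.25 in the distal libraries and 1649 and 1359 in the proximal libraries (-7.99 ± 0.47, adjusted p = 0.000175). Hoxb3 was at 17.1, 13.5, 19.2 and 11.4 distally and 1141 and 1529.8 proximally (-6.37 ± 0.28, adjusted p = 7.23e-05). Hoxb6 was at 36.03, 26.97, 56.6 and 23.8 distally and 2981 and 2633 proximally (-6.33 ± 0.35, adjusted p = 0.000142). The 7 genes from Hoxb2 to Hoxb8 differed by -6.19 to -7.99, whereas the next gene of the cluster, Hoxb9, was at 1385, 1219.8, 1186 and 1563 distally and 3460.3 and 3724 proximally (-1.43 ± 0.14, adjusted p = 0.000925). Hoxb9 was present in both segments, and Hoxb13 at the far end of the cluster ran the opposite way. Hoxd4 was at 3.603, 6.22, 11.5 and 7.25 distally and 283 and 309 proximally (-5.28 ± 0.43, adjusted p = 0.000459).

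The posterior A genes were high in all distal libraries and unlike between the proximal ones. Hoxa13 was at 2729.5, 2752, 2417 and 2904 in the distal libraries and 10.1 and 344 in the proximal libraries (5.45 ± 1.19, adjusted p = 0.0207). Hoxa9 was at 1740.4, 1718, 1506 and 1505 distally and 33.3 and 531 proximally (3.58 ± 0.95, adjusted p = 0.04) and Hoxa10 at 1817, 1439, 1372 and 1284 distally and 39.4 and 397 proximally (3.53 ± 0.81, adjusted p = 0.0238). In each of the 3, proximal replicate 2, the library with kidney transcripts, was far above proximal replicate 1. Hoxa9 lost its call without distal replicate 2, 3 or 4 (adjusted p = 0.0893, 0.0807 and 0.08), in edgeR (adjusted p = 0.104) and in DESeq2 (adjusted p = 0.0511). Hoxa10 lost it without the same libraries (adjusted p = 0.0585, 0.0547 and 0.0524) and in edgeR (adjusted p = 0.0564), and Hoxa13 without distal replicate 2 (adjusted p = 0.0537) or 4 (adjusted p = 0.0517). Over the list, leaving out distal replicate 2, 3 or 4 left 2, 4 and 3 genes higher and 11 lower each time. Hoxd10, Hoxd11, Hoxd12 and Hoxd13 were listed in the distal table alone, where Hoxd13 had normalized counts of 3879, 4167, 4943 and 3429. The authors left out of a table any gene with 1 read or fewer over its libraries. Beside this, the counts of higher and lower members were 5 and 10 in the WT littermates, 6 and 11 in the null libraries and 6 and 11 in the WT libraries of the null colony.

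**Figure D3:**
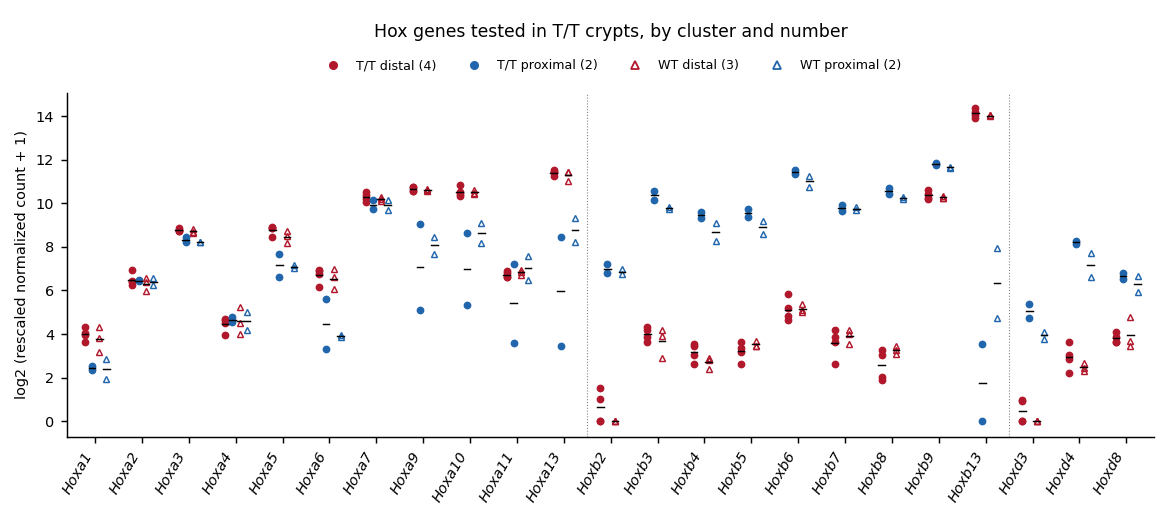
Log2(rescaled count + 1) on the vertical axis of the 23 tested Hox genes, ordered by cluster and number with dotted lines between clusters, 1 point per library and the mean as a line, for T/T distal (n = 4), T/T proximal (n = 2), WT distal (n = 3) and WT proximal (n = 2). Hoxb2 to Hoxb8 are low in distal and high in proximal libraries, Hoxb13 is the reverse, and the 2 T/T proximal libraries lie far apart in Hoxa9, Hoxa10, Hoxa11 and Hoxa13.

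Among 23 intestinal identity factors, 4 rose and 5 fell, with a median of -0.07. Cdx2, the master factor of intestinal identity, was at 4918, 3778, 2027 and 4055 in the distal libraries and 18094 and 15771 in the proximal libraries (-2.26 ± 0.34, adjusted p = 0.00464). Its paralog Cdx1 ran the other way, at 21769, 18798, 17825 and 21451 distally and 13988 and 13801 proximally (0.52 ± 0.11, adjusted p = 0.0209). Isx, a homeobox factor that limits vitamin A uptake, was at 40.5, 87.1, 105 and 208 distally and 6111 and 6218 proximally (-6.02 ± 0.57, adjusted p = 0.000849). Tbx3, a T-box repressor, was at 3.603, 2.07, 8.63 and 4.14 distally and 1911 and 1554 proximally (-8.39 ± 0.46, adjusted p = 0.00014). Both were low in all 4 distal libraries. The leucine zipper factor gene Maf (-3.64 ± 0.27, adjusted p = 0.00036) and Prdm1, which encodes BLIMP1 (-1.48 ± 0.21, adjusted p = 0.00379), were also lower distally. Foxa2, a forkhead factor of gut endoderm, was at 2584, 2489, 2044 and 1971 distally and 529 and 449.8 proximally (2.21 ± 0.16, adjusted p = 0.000315). With proximal replicate 1 omitted the list had 1 higher and 4 lower, and with proximal replicate 2 omitted 1 and 5. Cdx1 lost its call in both cases (adjusted p = 0.127 and 0.137) and Cdx2 in the first (adjusted p = 0.0514).

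The sodium channel subunit Scnn1a and several anion transport genes differed between the segments. Over all genes 22.1% were called, 11.7% higher and 10.4% lower. Beside this, of 20 sodium and proton transport genes 3 rose and 3 fell (median 0.01). Of 19 chloride, bicarbonate and potassium transport genes 4 rose and 2 fell (median -0.08). The second list had 2 and 2 without proximal replicate 1, 3 and 0 without proximal replicate 2, 4 and 4 without distal replicate 1 and 4 and 1 without distal replicate 2 or 3. Without distal replicate 4 and proximal replicate 2 the lists had 2 and 1, and 2 and 0. Scnn1a, the alpha subunit of the epithelial sodium channel, was at 7803, 6717, 6404 and 9543 in the distal libraries and 2020.4 and 2401 in the proximal libraries (1.77 ± 0.18, adjusted p = 0.00107). Nedd4l, a ubiquitin ligase that removes this channel from the membrane, was at 3357, 3370.1, 3724 and 3792 distally and 5859 and 6195 proximally (-0.76 ± 0.10, adjusted p = 0.00263). The sodium-proton exchanger Slc9a2 was at 10220.0, 9809, 9829 and 10985 distally and 17674 and 20472 proximally (-0.90 ± 0.10, adjusted p = 0.00164). So the channel gene was higher distally, and its ubiquitin ligase and the exchanger were lower, with no overlap in any of the 3. Atp1b1, the beta subunit of the sodium pump (0.61 ± 0.17, adjusted p = 0.0491), had a smaller difference whose call was lost without either proximal library (adjusted p = 0.297 and 0.106) and in edgeR (adjusted p = 0.0614) and without distal replicate 1 (adjusted p = 0.0509) or 3 (adjusted p = 0.0919).

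Ano1, a calcium-activated chloride channel, was at 15448, 12594, 13189 and 13704 in the distal libraries and 701 and 829.9 in the proximal libraries (4.16 ± 0.12, adjusted p = 3.31e-05). Best2, a bicarbonate channel of goblet cells, was at 1829.6, 2045, 1901 and 4368 distally and 143 and 528 proximally (3.10 ± 0.57, adjusted p = 0.0115), with distal replicate 4 the highest of its segment. Best2 was not called without proximal replicate 1 (adjusted p = 0.0633). Clca4b, a chloride channel regulator, was at 15838, 35604, 68496 and 46067 distally and 2535 and 2731 proximally (3.79 ± 0.53, adjusted p = 0.00364), and was not called without distal replicate 4 and proximal replicate 2 (adjusted p = 0.123). The anion exchanger Slc4a2 was lower distally, at 7871, 6953, 5781 and 8503 distally and 14425 and 16887 proximally (-1.12 ± 0.17, adjusted p = 0.00528), and lost its call without proximal replicate 2 (-1.002, adjusted p = 0.0596). Slc26a3, the apical chloride-bicarbonate exchanger, overlapped, at 16061, 34959.8, 32012 and 45530.4 distally and 27122 and 34484 proximally (-0.02 ± 0.39, adjusted p = 0.973).

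Of 16 water channel, carbonic anhydrase and guanylin genes, 2 rose and 9 fell (median -0.70). Car1, a cytosolic carbonic anhydrase, was at 9398, 8605, 5331 and 25400.1 in the distal libraries and 626707 and 543585 in the proximal libraries (-5.83 ± 0.56, adjusted p = 0.000887). Car4, the membrane-bound enzyme, ran the other way, at 30364, 29695, 31432 and 45778 distally and 10730.2 and 13020.0 proximally (1.51 ± 0.20, adjusted p = 0.00298). Both were highest in distal replicate 4 within the distal segment. Car12 and Car8, both carbonic anhydrase family members, were lower distally (-3.97 ± 0.15, adjusted p = 4.99e-05 and -3.36 ± 0.13, adjusted p = 5.31e-05). Guca2a, the hormone guanylin, which acts on the gut guanylate cyclase, was at 8644, 7069, 3230.2 and 10736 distally and 28401 and 28761 proximally (-2.07 ± 0.45, adjusted p = 0.0198), and was not called without proximal replicate 1 or 2 (adjusted p = 0.12 and 0.121). Among water channels, Aqp1 was lower distally (-2.52 ± 0.35, adjusted p = 0.00378), Aqp8 did not pass the test (0.28 ± 0.10, adjusted p = 0.0824), and Aqp4 was at 10526, 30994, 28956 and 24175 distally and 7274 and 7591 proximally (1.56 ± 0.43, adjusted p = 0.0444). Distal replicate 1, low in long transcripts, had the least Aqp4 of its segment, and Aqp4 lost its call without any one library other than distal replicate 1 (adjusted p = 0.0942 to 0.204). The list had 1 higher and 7 lower without proximal replicate 1, and 1 and 6 without proximal replicate 2.

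Of 25 genes of bile acid and lipid handling, 3 were higher and 11 lower distally, and 11 were not called, with a median of -1.04. The genes of the bile acid route named here were all lower distally. Slc10a2, which takes bile acids up at the apical membrane, was at 63.96, 87.1, 157 and 149 in the distal libraries and 7191 and 5883 in the proximal libraries (-5.91 ± 0.39, adjusted p = 0.000228). Slc51b, the partner subunit of Slc51a, was at 1209, 1063, 1509 and 1293 distally and 3219 and 3170.5 proximally (-1.34 ± 0.15, adjusted p = 0.00155), and Nr1h4, the bile acid receptor FXR, at 2919, 2689, 3183 and 3221 distally and 7754 and 7093 proximally (-1.31 ± 0.11, adjusted p = 0.000552). Slc51b and Nr1h4 were still present in the distal libraries, while Slc51a was near 0 there. Fabp2, the intestinal fatty acid binding protein (-3.96 ± 0.29, adjusted p = 0.000352), and Pparg, a nuclear receptor for fatty acids (-1.65 ± 0.17, adjusted p = 0.00115), were lower as well. The 3 higher genes were Scd2, a fatty acid desaturase, at 102905, 80585, 75371 and 74612 distally and 27208 and 25817 proximally (1.64 ± 0.15, adjusted p = 0.000786), and both subunits of the sterol exporter, Abcg5 (4.70 ± 0.39, adjusted p = 0.000502) and Abcg8 (3.57 ± 0.33, adjusted p = 0.000739). The list had 6 higher and 12 lower without distal replicate 4, and without distal replicate 4 and proximal replicate 2 it had 3 and 8. For this list the counts of higher and lower members were 4 and 11 in the WT littermates, 5 and 11 in the null libraries and 4 and 11 in the WT libraries of the null colony.

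Of 49 xenobiotic enzymes, 13 rose and 19 fell (median -0.21), often in opposite directions within a family. Cyp2c55, a cytochrome P450 of the colon, was at 2506, 2630.5, 467 and 5561 in the distal libraries and 126649 and 144389 in the proximal libraries (-6.05 ± 0.89, adjusted p = 0.00443), and Cyp2c65 at 72.97, 96.5, 26.8 and 348 distally and 19993 and 20268 proximally (-7.78 ± 0.89, adjusted p = 0.00164). Their relative Cyp2c68 was at 2006, 2766, 2606 and 4026 distally and 77.7 and 86.9 proximally (5.05 ± 0.26, adjusted p = 0.000129). Distal replicate 3 was the lowest and replicate 4 the highest distal library in the first 2 of these. Cyp2f2 (6.72 ± 0.27, adjusted p = 5.31e-05) and Cyp2d12 (3.64 ± 0.23, adjusted p = 0.000198) were higher distally and Cyp4b1 lower (-5.52 ± 0.43, adjusted p = 0.000411). Among conjugating enzymes the glucuronosyltransferases Ugt1a1 (-2.95 ± 0.27, adjusted p = 0.000758) and Ugt1a6a (-3.06 ± 0.22, adjusted p = 0.000315) were lower, and the glutathione transferase Gsta3 was higher (2.86 ± 0.15, adjusted p = 0.000126). Leaving out proximal replicate 1 left 8 higher and 14 lower, and leaving out proximal replicate 2 left 8 and 13.

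Of 19 listed carboxylesterases, hydrolases of esters and drugs, 15 were in both tables and 12 passed the filter, and each of these was called, 4 higher and 8 lower (median -1.23, also with Ces1b at its bound). Ces1b was at 82.9, 74.7, 49.9 and 60.05 distally and at 0 in both proximal libraries, at least 22.7-fold higher against a floor of 3 reads per library. Ces1c was at 224, 134, 209 and 149 distally and 12.1 and 5.73 proximally (4.23 ± 0.36, adjusted p = 0.000584), while their neighbor Ces1g was at 795, 609.9, 497 and 656 distally and 8324 and 5644 proximally (-3.44 ± 0.23, adjusted p = 0.000248). In the Ces2 group, Ces2f was at 449, 353, 1238 and 538 distally and 16.2 and 35.3 proximally (4.52 ± 0.54, adjusted p = 0.00203) and the more even Ces2c and Ces2e were lower distally (-1.19 and -1.11). Members of these families are close in sequence, so reads could have been shared between them. With proximal replicate 1 omitted the list had 4 higher and 7 lower, and with proximal replicate 2 omitted 4 and 5. It had 3 and 3 without distal replicate 4 and proximal replicate 2, and Ces2f, Ces2c and Ces2e were not called (adjusted p = 0.0581, 0.06495 and 0.0503). Beside this, the counts of higher and lower members were 4 and 7 in the WT littermates, 4 and 8 in the null libraries and 3 and 3 in the WT libraries of the null colony.

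Among 17 goblet cell products, 6 rose and 4 fell (median 0.25). Fcgbp, which binds the mucin network, was at 398990.0, 376616, 378515 and 472005 in the distal libraries and 195487 and 227662 in the proximal libraries (0.94 ± 0.15, adjusted p = 0.00559). Clca1, a mucus-processing protease, was at 104785, 101589, 100013 and 92342 distally and 34816 and 26039 proximally (1.73 ± 0.14, adjusted p = 0.000455). Zg16, a lectin that keeps bacteria off the epithelium (0.78 ± 0.18, adjusted p = 0.0242), and Tff3, a trefoil peptide (0.69 ± 0.16, adjusted p = 0.0223), had differences under 1, and both lost the call without either proximal library (Zg16 adjusted p = 0.183 and 0.0677, Tff3 0.113 and 0.154). Fcgbp lost it without proximal replicate 1 (adjusted p = 0.0639). Retnlb, the antibacterial RELMβ, was at 1365, 1438, 1126 and 1552 distally and 20649.7 and 13396 proximally (-3.61 ± 0.21, adjusted p = 0.000152), and Sval1 at 9769.6, 14518, 14070.5 and 10219.9 distally and 1488 and 1331 proximally (3.08 ± 0.20, adjusted p = 0.000208). Retnlb was lower and Sval1 higher in every distal library. The lectin Itln1 (-3.17 ± 0.49, adjusted p = 0.00558) and the chemokine Ccl9 (-2.20 ± 0.22, adjusted p = 0.00103) were lower, and Itln1 lost its call without proximal replicate 1 (adjusted p = 0.0629). The list had 3 higher and 2 lower without proximal replicate 1, and 4 and 3 without proximal replicate 2.

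Of 20 secretory transcription factors 4 rose and 1 fell (median 0.26), near the 22.1% called over all genes. Spdef, which drives goblet cell maturation, was lower distally, at 2204, 1931, 1778 and 2695 in the distal libraries and 4359 and 3708 in the proximal libraries (-0.92 ± 0.18, adjusted p = 0.0145). Creb3l1, a factor of secretory capacity, was higher, at 13577, 10022, 9353 and 11939.6 distally and 4489 and 4720.4 proximally (1.27 ± 0.16, adjusted p = 0.00263). Atoh1, the switch to the secretory fate, did not pass the test (0.21 ± 0.12, adjusted p = 0.255). Its segments did not overlap, as in 49.9% of all genes. Spdef lost its call without either proximal library (adjusted p = 0.124 and 0.0661). Leaving out proximal replicate 1 left 1 higher and 0 lower, and leaving out proximal replicate 2 left 1 and 0.

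Of 35 mucin glycosylation genes, 10 rose and 12 fell (median 0.04), and several enzymes of like activity differed in direction. The counts were 7 and 8 without proximal replicate 1, 8 and 8 without proximal replicate 2 and 6 and 9 without distal replicate 4 and proximal replicate 2. B3gnt7 was at 34489.5, 34317, 32723 and 43248 in the distal libraries and 609.9 and 392 in the proximal libraries (6.20 ± 0.20, adjusted p = 3.93e-05), whereas B3gnt6, the core 3 synthase, was at 36.03, 24.9, 22.1 and 35.2 distally and 548 and 829.9 proximally (-4.50 ± 0.30, adjusted p = 0.000248). The sialyltransferase St3gal6 was at 6945, 7869, 8375 and 7011 distally and 375 and 479 proximally (4.15 ± 0.14, adjusted p = 3.93e-05), and St3gal1 at 61.3, 39.4, 37.4 and 79.7 distally and 2491 and 2641 proximally (-5.60 ± 0.33, adjusted p = 0.000176). In both pairs the segments were apart in opposite directions. B4galnt3, which makes the LacdiNAc unit (2.96 ± 0.13, adjusted p = 7.23e-05), was higher, and B4galnt1 (-4.13 ± 0.55, adjusted p = 0.00296) and B4galnt2, which makes the Sda antigen (-2.001 ± 0.13, adjusted p = 0.000222), were lower. The sulfotransferase genes Gal3st2b (2.63 ± 0.19, adjusted p = 0.00032) and Gal3st2c (-2.20 ± 0.17, adjusted p = 0.000447) also ran opposite ways, and the fucosyltransferase Fut4 was at 10179, 9464, 9749 and 11194 distally and 2186 and 2187 proximally (2.21 ± 0.10, adjusted p = 7.26e-05). Among 7 transmembrane mucins, 2 rose and 3 fell, with 1 higher without either proximal library or distal replicate 2 or 3. Muc16 was at 3.603, 2.07, 0 and 7.25 distally and 935 and 946 proximally (-8.16 ± 0.80, adjusted p = 0.000932), Muc1 at 755, 446, 1244 and 755 distally and 61.6 and 139 proximally (3.00 ± 0.46, adjusted p = 0.00558), and the abundant Muc13 had a difference of 0.57 ± 0.15, adjusted p = 0.0377 that was lost without proximal replicate 1 or 2 or distal replicate 2 or 3 (adjusted p = 0.159, 0.215, 0.0824 and 0.0822).

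Of 21 antimicrobial and barrier genes, 5 rose and 4 fell (median 0.22, also with Reg3a at its bound). Beside Reg3b, Reg3g was at 50.4, 34.2, 199 and 143 in the distal libraries and 47174 and 46214 in the proximal libraries (-9.10 ± 0.70, adjusted p = 0.000406), and Reg3a was at 0 in all distal libraries and at 70.7 and 44.9 proximally, at least 19.6-fold lower distally against a floor of 3 reads per library. Distal replicates 3 and 4 had more Reg3b and Reg3g than replicates 1 and 2, and remained far below the proximal libraries. Saa1, an acute-phase protein, was at 42138, 33492, 46493 and 41849 distally and 11615 and 11820.5 proximally (1.80 ± 0.14, adjusted p = 0.000429), and its relative Saa3 at 41.4, 26.97, 35.5 and 55.9 distally and 749 and 707 proximally (-4.20 ± 0.30, adjusted p = 0.000318). Lypd8, which blocks flagellated bacteria, was at 425376, 357234, 377855 and 432239 distally and 282932 and 266500.0 proximally (0.53 ± 0.13, adjusted p = 0.0307) and lost its call without either proximal library (adjusted p = 0.137 and 0.197) or distal replicate 3 (adjusted p = 0.0595). Without distal replicate 4 and proximal replicate 2 the list had 2 higher and 4 lower. The lysozyme gene Lyz1, a marker of Paneth cells in the ileum, was at 107, 103, 30.7 and 60.05 distally and 5.05 and 2.86 proximally (3.82 ± 0.56, adjusted p = 0.0045). Lyz1 was not called in the fit with the WT libraries (adjusted p = 0.093) or without distal replicate 4 and proximal replicate 2 (adjusted p = 0.121).

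Hormone genes of enteroendocrine cells differed in both directions. Of 22 tested, 6 rose and 7 fell (median -0.57). Insl5, an insulin-family hormone of the distal colon, was at 4992, 3253, 4698 and 3619 in the distal libraries and 77.7 and 199.6 in the proximal libraries (5.02 ± 0.38, adjusted p = 0.000364). Pyy, peptide YY, was at 4601, 4208, 4212 and 4454 distally and 1290.4 and 829 proximally (2.08 ± 0.18, adjusted p = 0.00056). Both were higher in each distal library. The granin Scg2 (3.76 ± 0.26, adjusted p = 0.000267) and Tac1, which encodes substance P (1.90 ± 0.34, adjusted p = 0.0101), were higher too, and Tac1 lost its call without either proximal library (adjusted p = 0.0589 and 0.0882). Beside Nts, the lower hormones were Sct, secretin, at 139, 105, 147 and 164 distally and 1484 and 1199 proximally (-3.28 ± 0.21, adjusted p = 0.000228), and Sst, somatostatin, at 129.7, 84.02, 104 and 78.7 distally and 489.7 and 346 proximally (-2.07 ± 0.27, adjusted p = 0.00264). Iapp, islet amyloid polypeptide, was at 1.802, 1.04, 0.959 and 4.14 distally and 65.6 and 50.6 proximally (-4.41 ± 0.53, adjusted p = 0.00202), and the prohormone convertase Pcsk1 at 229, 294, 363 and 281 distally and 1639 and 1174 proximally (-2.27 ± 0.23, adjusted p = 0.000993). With proximal replicate 1 omitted the list had 3 higher and 5 lower, and with proximal replicate 2 omitted 3 and 5. In the other comparisons the counts of higher and lower members were 6 and 7 in the WT littermates, 5 and 6 in the null libraries and 6 and 9 in the WT libraries of the null colony.

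Of 14 tuft cell markers, 0 rose and 6 fell (median -1.06), and 9 had an unadjusted p under 0.05, beside 35.3% of all genes. Tuft cells sense luminal chemicals. Dclk1, a kinase that marks them, was at 259, 266, 232 and 258 in the distal libraries and 494 and 590.2 in the proximal libraries (-1.09 ± 0.14, adjusted p = 0.00292). Trpm5, their taste-transduction channel, was at 177, 148, 149.6 and 164 distally and 322 and 356 proximally (-1.09 ± 0.16, adjusted p = 0.00401), and Rgs13 at 32.4, 60.2, 48.9 and 54.9 distally and 174 and 129.9 proximally (-1.63 ± 0.31, adjusted p = 0.0119). Cd24a, which other secretory cells also carry, had -0.49 ± 0.10, adjusted p = 0.0184. The segments did not overlap in any of these, beside 49.9% of all genes without overlap. The list had 0 higher and 2 lower without proximal replicate 1, and 0 and 1 without proximal replicate 2. Without distal replicate 4 and proximal replicate 2 together limma called 0 of them, with a median of -0.93. In the null libraries of name series 4149, limma called 0 tuft markers, with a median of -1.11 and 7 at an unadjusted p under 0.05 (25.9% of all genes there), and it called 7 lower in the WT littermates and 2 in the WT libraries of the null colony.

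Of 20 stem cell and Wnt target genes, 4 rose and 5 fell (median -0.06). Smoc2, a stem cell matrix protein, was at 2122, 1859, 2134 and 1575 in the distal libraries and 943 and 873 in the proximal libraries (1.07 ± 0.15, adjusted p = 0.00388), and Lrig1, a growth factor receptor inhibitor of stem cells, at 9758, 7348, 7863 and 7289.9 distally and 3984 and 4296 proximally (0.95 ± 0.14, adjusted p = 0.00459). Prom1, which encodes CD133, was at 4422, 5600.2, 5655 and 8249 distally and 27910.5 and 27922 proximally (-2.26 ± 0.23, adjusted p = 0.00108), and the hyaluronan receptor Cd44 at 738, 874, 791 and 568 distally and 3526 and 3023 proximally (-2.15 ± 0.19, adjusted p = 0.000614). The first pair was higher and the second lower in every distal library, and Lrig1 lost its call without proximal replicate 1 (adjusted p = 0.0542). Leaving out proximal replicate 1 left 1 higher and 3 lower, and leaving out proximal replicate 2 left 2 and 3. Of 9 claudins, proteins of tight junctions, 3 rose and 1 fell. Cldn8, which seals the junction to sodium, was at 7073, 8748, 8844 and 3814 distally and 719.9 and 179 proximally (4.23 ± 0.59, adjusted p = 0.00364), Cldn14 at 326, 312, 375 and 436 distally and 28.3 and 15.3 proximally (4.04 ± 0.28, adjusted p = 0.000293) and Cldn15, which forms sodium-permeable pores, at 2839, 2056, 1790.1 and 3158 distally and 7920.2 and 8140.1 proximally (-1.74 ± 0.24, adjusted p = 0.0034).

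No gene was called by limma in 4 lists of cell functions: nuclear genes of oxidative phosphorylation (35 tested, median -0.02, 3 at an unadjusted p under 0.05), DNA replication (31, -0.02, 3), mitosis (25, 0.48, 0) and circadian clock genes (16, -0.25, 0), beside 35.3% of all genes at that unadjusted p. On recovered reads edgeR called 0, 0, 0 and 0 of their genes and DESeq2 3, 1, 0 and 0. Leaving out distal replicate 4, limma called 2 mitotic genes, 1 circadian gene and 1 gene of oxidative phosphorylation higher. Leaving out distal replicate 1 gave 1 higher and 1 lower gene of oxidative phosphorylation and 1 lower of DNA replication, and leaving out distal replicate 2 gave 1 higher gene of oxidative phosphorylation. The summed count of the mitotic genes was 56243, 106322, 84494 and 37020 distally and 68656 and 38587 proximally. It was lowest in the pair of libraries that also stood apart in Tef and Arntl and overlapped between the segments. Of 19 immediate early and heat shock genes, 4 rose and 5 fell (median -0.0047), and of 30 interferon-stimulated and MHC class II genes 1 rose and 6 fell (median -0.14), the latter near the 22.1% called over all genes. Gbp2, a guanylate binding protein, was at 4016, 7437, 5820.0 and 5122 distally and 2206 and 910.1 proximally (1.95 ± 0.38, adjusted p = 0.0142), and Irf7, a regulator of interferon genes, at 3270.0, 3904, 2919.6 and 2855 distally and 7828 and 5689.7 proximally (-1.05 ± 0.18, adjusted p = 0.00857). Without proximal replicate 1 the latter list had 1 higher and 0 lower, with Irf7 at adjusted p = 0.0768, and without proximal replicate 2 it had 0 and 3, with Gbp2 at adjusted p = 0.0742. The immediate early and heat shock list had 1 and 2 in the first case and 0 and 3 in the second.

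**Figure D4:**
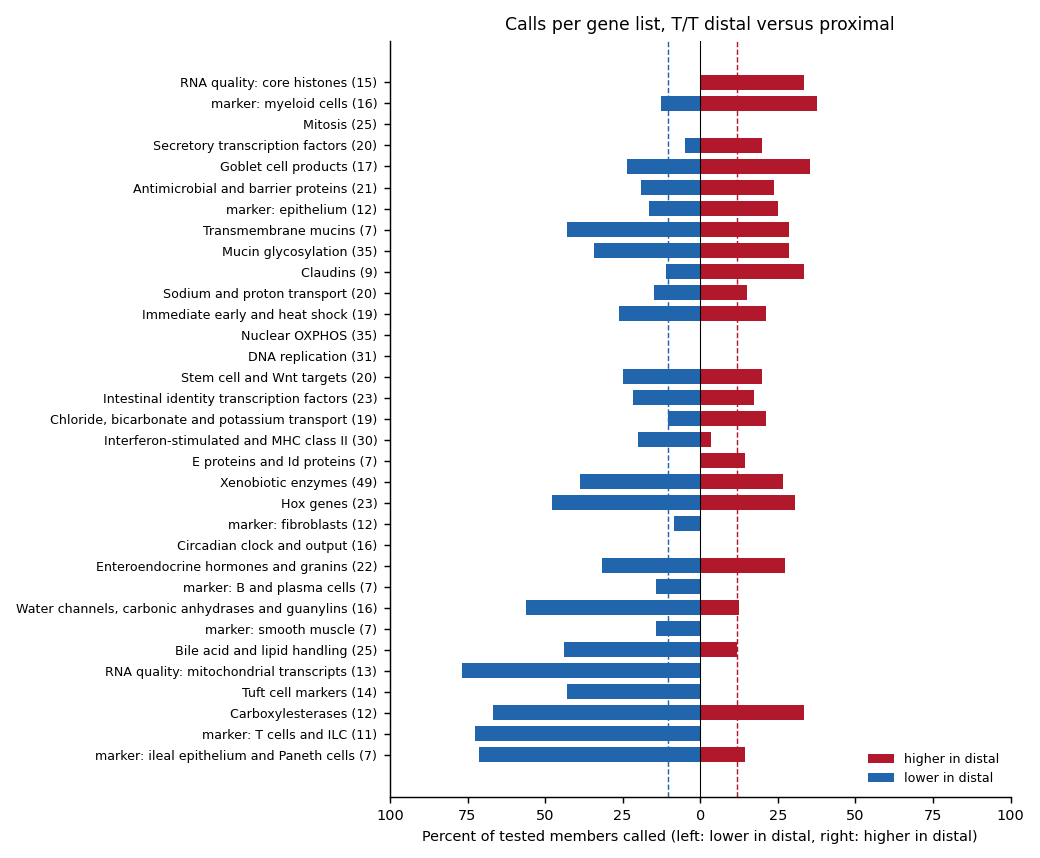
Percent of tested members called higher (right) and lower (left) in distal crypts for each gene list with at least 7 tested members, ordered by the median difference, with dashed lines at the shares of all genes (11.7% higher and 10.4% lower). Carboxylesterases (4 higher and 8 lower of 12), Hox genes (7 and 11 of 23) and bile acid and lipid genes (3 and 11 of 25) have bars beyond the line for lower genes, and mitosis, DNA replication, circadian and nuclear oxidative phosphorylation genes have no call.

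Among markers of other cells, the T cell and innate lymphoid list and several myeloid genes differed with the segment. Of 11 T cell and innate lymphoid markers, 0 rose and 8 fell (median -1.84), and none was at 0 in any library. The granzyme genes Gzma and Gzmb were at 435, 263, 267 and 319.9 distally and 1827 and 1925 proximally (-2.57 ± 0.22, adjusted p = 0.000614) and 289, 248, 204 and 237 distally and 1505 and 1227 proximally (-2.48 ± 0.18, adjusted p = 0.000324). Cd8a was at 322, 135, 194 and 201 distally and 739 and 934 proximally (-2.03 ± 0.33, adjusted p = 0.00703). The summed level was 1157 to 2152 distally and 6407 and 6357 proximally. Without proximal replicate 1 the count was 4 lower and without replicate 2 3, with Cd8a at adjusted p = 0.0718. Of 16 myeloid markers, 6 rose and 2 fell (median 0.54), among them Csf1r, a growth factor receptor of macrophages, at 139.6, 79.9, 122 and 73.5 distally and 19.2 and 16.2 proximally (2.44 ± 0.33, adjusted p = 0.00323), and the complement gene C1qb at 158, 81.9, 139 and 139.8 distally and 19.2 and 30.6 proximally (2.33 ± 0.34, adjusted p = 0.00432). The 2 lower were Ptprc (-2.02, adjusted p = 0.0211) and C1qa (-1.08, adjusted p = 0.0426). The summed myeloid level was 5967 to 7934 distally and 4786 and 4314 proximally, and in the null libraries 0 myeloid markers were called higher and 2 lower by limma, with 9 at an unadjusted p under 0.05. In the WT littermates 4 were higher and 4 lower. The T/T counts were 3 and 0 without proximal replicate 1, 4 and 0 without proximal replicate 2, 6 and 0 without distal replicate 4, 5 and 1 without distal replicate 3 and 6 and 4 without distal replicate 1. Without distal replicate 4 and proximal replicate 2 they were 1 and 0, and Csf1r and C1qb were not called (adjusted p = 0.0607 and 0.069). The part of these cells in the differences of the epithelial lists was not tested.

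In the B and plasma cell, smooth muscle and enteric neuron and glia lists 1 gene each was called (Ms4a1 of 7 and Mylk of 7 lower, Uchl1 of 5 higher), and of 5 red cell markers 0. Fibroblast markers (0 of 12 higher and 1 lower) summed to 557 to 680 in distal replicates 1 to 3, 2293 in distal replicate 4 and 1088 and 1810 proximally. Of the markers of ileal epithelium and Paneth cells, 1 of 7 rose and 5 fell, and they summed to 733 to 1491 distally and 9215 and 8269 proximally. Core histone genes, whose transcripts lack a poly(A) tail, rose in 5 of 15 tested and fell in 0, and summed to 12269 to 18537 distally and 9958 and 7450 proximally. Without proximal replicate 1, 3 histone genes were called, without proximal replicate 2, 0, and without distal replicate 2 or 3, 1. Of 13 mitochondrially encoded transcripts, 0 rose and 10 fell (median -1.05), and their share of the rescaled counts was 2.83%, 4.46%, 4.15% and 4.43% distally and 7.78% and 8.70% proximally. In the WT littermates the shares were 3.66%, 4.45% and 4.66% against 7.97% and 7.08%, with the same 2 name series, and 10 of the 13 were also called lower. In T/T the count of 10 was 4 without proximal replicate 1, 3 without proximal replicate 2 and 1 without distal replicate 4 and proximal replicate 2. In the null libraries, where both segments have name series 4149, the shares were 4.64% and 5.15% against 6.91% and 6.87%, and in WT libraries of that series 5.12% and 5.25% against 7.19% and 8.19%, with 0 of the 13 called by limma in either. In the null the median of the 13 was -0.45, with 7 at an unadjusted p under 0.05. The nuclear genes of oxidative phosphorylation had a median of -0.02 in T/T with 0 called.

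The segments of T/T mice were then compared with those of their WT littermates, which have the same layout of name series. The difference of the segment effects was tested in 1 fit of 11 libraries. Of 13748 genes, limma called 0 at an adjusted p under 0.05, with 471 at an unadjusted p under 0.05, and edgeR on recovered reads also called 0 (474 unadjusted), whereas DESeq2 called 16 with a greater and 5 with a smaller distal minus proximal difference in T/T (509 unadjusted). With proximal replicate 2 of T/T left out limma called 8 genes, and without WT proximal replicate 1 it called 3. Of the 3029 genes called in T/T and tested in WT, 3019 (99.7%) had the same sign in WT and 2504 (82.7%) were called in the same direction there, which is 73.5% of the 3405 WT calls. In the WT littermates 1784 genes were higher (13%) and 1647 lower (12%), 25% of those tested. The T/T calls are from the fit of 6 libraries and the WT calls from the fit of 11, in which T/T had 2474 higher and 1935 lower, so the shares compare calls from unlike fits.

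The lowest p belonged to Cacna1h, a T-type calcium channel, chosen after its values were seen, as are the other genes of this paragraph. In T/T Cacna1h was at 249.5, 239.6, 289 and 236 distally and 247 and 288 proximally, and in WT at 114, 152 and 145 distally and 572 and 565 proximally. The gene was lower in distal than in proximal WT crypts and level between the T/T segments, and the difference of the differences was 1.97 ± 0.23, adjusted p = 0.101 in limma and had an adjusted p of 2.84e-12 in DESeq2. In the null libraries Cacna1h was also near level, at 429.9 and 474 distally and 418 and 656 proximally, and in the WT libraries of that colony it was at 151 and 151 distally and 1174 and 762 proximally. Atp12a had WT values of 32250.1, 44786 and 32777 distally and 49.02 and 130.5 proximally, so that its step was larger in T/T than in these littermates (3.30 ± 0.50, adjusted p = 0.29). In the WT libraries of the null colony Atp12a was at 33019 and 39058 distally and 9.13 and 1.00 proximally, a step of 12.96 beside 12.11 in T/T. B3gnt7 had 29182, 34297 and 38160.0 distally and 1453 and 1674 proximally (1.76 ± 0.27, adjusted p = 0.29). In both genes the WT littermate proximal libraries held more than the T/T proximal libraries. Gal3st2c was at 1355, 1853, 2043 and 1560.3 distally and 7551 and 7871 proximally in T/T and at 1525, 1899 and 1878 distally and 2783 and 2753 proximally in WT (-1.55 ± 0.24, adjusted p = 0.29). Trim46 (1.58 ± 0.26, adjusted p = 0.29), Nxpe2 (2.45 ± 0.40, adjusted p = 0.29), the flavin monooxygenase gene Fmo1 (-1.77 ± 0.29, adjusted p = 0.29) and Ano1 (1.12 ± 0.19, adjusted p = 0.297) had the next lowest p. All 8 were called in DESeq2 (adjusted p up to 0.00081) and none in limma or edgeR on all 11 libraries, although limma called Atp12a without WT proximal replicate 1 (adjusted p = 0.00963) and Nxpe2 without T/T proximal replicate 2 (adjusted p = 0.0372).

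**Figure D5:**
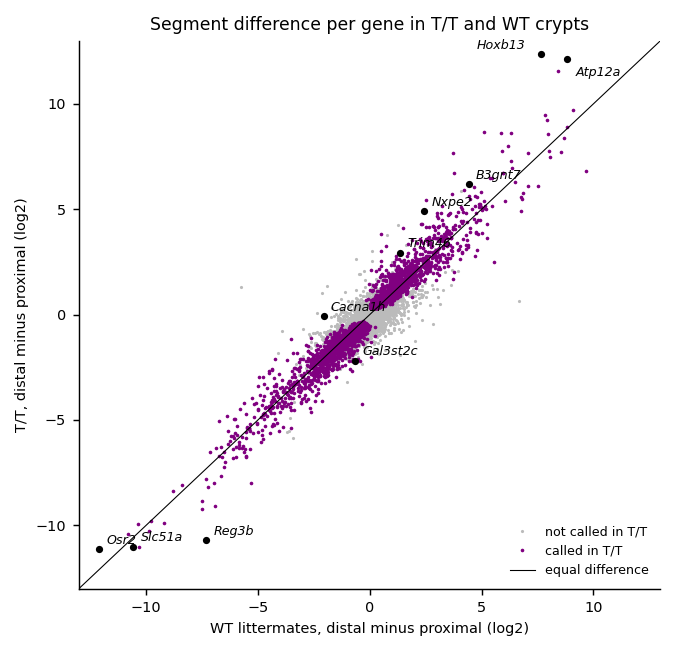
Difference between distal and proximal (log2) in T/T (vertical axis) and in WT littermates (horizontal axis), 1 point per gene, with genes called in T/T in purple, named genes in black and the line of equal differences. The 3019 of 3029 called genes with the same sign lie in the lower left and upper right, and Hoxb13 and Atp12a lie above the line, with more of their transcripts in the proximal libraries of these WT littermates than in those of T/T.

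In the null colony both segments of 4 null libraries and of 4 WT libraries have name series 4149, so that there the segment was compared within 1 name series. Of 14065 genes in the null libraries 791 rose (5.62%) and 990 fell (7.04%), 12.7% in all, and of 13950 in the WT libraries 1004 rose (7.2%) and 1019 fell (7.3%), 14.5% in all, each from 2 against 2 libraries. Of T/T calls tested there, 1414 of 3022 (46.8%) were called in the same direction in the null, which is 82.6% of the 1711 null calls, and 98.2% had the same sign. In the WT libraries of that colony 1548 of 3017 (51.3%) were, which is 79.8% of its 1939 calls, and 97.9% had the same sign. A set of 1112 genes, 524 higher and 588 lower, was called in one direction in T/T and in the 3 other comparisons. Among the 20 genes with the largest T/T differences, Hoxb13 was at 17717 and 24352 distally and 33.8 and 15.5 proximally in the null, Atp12a at 53179 and 52502 distally and 29.5 and 36.7 proximally and Reg3b at 70.4 and 61.2 distally and 545518 and 292771 proximally. These 3 genes were high and low in the same segments as in T/T.

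The difference between the T/T and the null segment effects was tested in 10 libraries, where the name series does not cancel. Of 13898 genes, limma called 1 (0.0072%, in the higher direction), with 554 at an unadjusted p under 0.05. That gene was Ces1b (4.26 ± 0.42, adjusted p = 0.0493), which was at 0 in both T/T proximal libraries and at 166 and 183 distally and 49.1 and 45.4 proximally in the null. In the WT littermates Ces1b was also near absent proximally, at 39.3, 64.01 and 44.7 distally and 0 and 2.72 proximally, and the T/T minus WT difference was not called (1.38, adjusted p = 0.979). On recovered reads edgeR called 0 genes (Ces1b adjusted p = 0.116) and DESeq2 11 and 18. The call of Ces1b was lost when any 1 of the 10 libraries was left out (adjusted p = 0.0592 to 0.500).

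Genes listed in only 1 of the T/T tables could not be tested. There were 1032 in the distal table alone and 643 in the proximal table alone, beside 16827 in both, and 29 and 16 of them had a mean normalized count of at least 10 over the 6 libraries. Beside the posterior Hoxd genes, the distal list held Casp14, a caspase of cornified epithelium (1462, 1098, 1331 and 2185), and Fxyd4, a regulator of the sodium pump (479, 251, 256 and 657). The proximal list held Cyp2c66 (491 and 788) and Gulp1, an engulfment adaptor (561 and 490). These values are as deposited and were chosen after they were seen.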

How the data were processed

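Crypt RNA was sequenced by the study, trimmed with fastp 0.20.0 and quantified with Salmon 1.3.0 against a decoy-aware GENCODE vM21 transcriptome (GRCm38), then summed per gene with tximeta in R 3.6.3. The deposited signal values are the normalized counts of DESeq2 1.26.0, that is, estimated whole-read counts over a library's size factor, set separately for each table, and the authors left out genes with 1 read or fewer over a table. Columns of the authors' own log2 fold changes, statistics and p-values stand beside them and were not used. No per-sample column of the tables used was left unused (0).

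The 4 T/T distal and 2 T/T proximal columns, kept for the 16827 Ensembl IDs in both tables, were rescaled together by TMM (edgeR 4.0.16) and tested with limma 3.58.1 in R 4.3.3 (empirical Bayes with a mean-variance trend) on log2(value + 1), for genes averaging at least 10. P-values were adjusted by Benjamini-Hochberg and called under 0.05. The differences between T/T and WT and between T/T and null were tested as contrasts of 4 group means. Symbols are those of the tables. All values of a column came out as whole multiples of 1 step (100% within 0.1), and the recovered reads, 38715663 to 44798151 per T/T library, were used for edgeR's quasi-likelihood test and for DESeq2 1.42.0 as alternatives over the same genes. In T/T proximal replicate 2 that step is 1.01, so close to 1 that it is the least certain. Scripts were tested on simulated data.

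Genes with values are the MTG family and the E and Id proteins, per direction the 10 largest differences among called genes with a mean of at least 100 in the higher segment and no overlap, of each gene list up to 4 abundant members and up to 3 called members per direction, and genes said to have been chosen after their values were seen. For the 2 differences between genotypes the rule was the 5 largest called genes per direction with a mean of at least 100 in some group. It gave Ces1b for T/T minus null, at 166 and 183 in the null distal libraries, and none for T/T minus WT. The genotype of the comparison, its members and all gene lists were chosen with earlier results of these data known. Promoters are from RefSeq (GRCm38.p6), which held 106 of 148 named genes. Results on some genes are not reported here.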

Additional observations from a re-analysis of the deposited data

Results flagged for a closer look

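Within the 4 distal T/T libraries, 170 values were tested with Dixon's criterion for 1 library far from the others, and 13 passed it. In 3 of these (Nts, Myh4 and Pvalb) the other 3 libraries were at 0, so that any value passes, which leaves 10 of 167. Dbp, Tef and Ciart were tabulated because a library stood apart in them, and without the genes of that kind 7 of 161 passed. Chance passes about 1 in 20, which is about that share. In 12 of the 13 the library was distal replicate 4. It was highest in Best2 (4368, the other 3 at 1830 to 2045), in Car4 (45778, others 29695 to 31432), in Nts (3.11, the others at 0), in the skeletal muscle transcripts Myh4 (109) and Pvalb (199.8), both at 0 in the others, and in the clock output genes Dbp (4062), Tef (5887) and Ciart (647). It was also highest in the summed fibroblast markers (2293) and red cell markers (1397), and lowest in Mptx1 (31646, the others at 59493 to 66348) and in the summed core histone genes (12269). Distal replicate 1 was lowest in Tcf12 (1357, the others at 2179 to 2339). None of the T/T proximal values could be tested in this way, with 2 libraries.

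Ces1b was the gene whose segment difference differed between T/T and null mice by limma (4.26 on the log2 scale, adjusted p = 0.0493). It stood at 82.9, 74.7, 49.9 and 60.1 in the distal T/T libraries and at 0 in both proximal ones. With values of 0 there, the size of the difference depends on the 1 added to each count, and it was 4.17 to 7.55 over the alternatives. The WT littermates had 0 and 2.72 proximally, and the T/T minus WT difference was not called (1.38, adjusted p = 0.979). The adjusted p was 0.0017 to 0.500 over the alternatives, among them 0.116 in edgeR and 0.0113 in DESeq2 on recovered reads.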

How the results depend on the processing

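For the T/T segments (1614 higher and 1433 lower), counts stayed within 1.5 times under a pseudocount of 0.1, no filter, both other scalings, bridge scaling through the WT libraries, IDs of either table, edgeR and DESeq2. They moved with the Xist level as a covariate (747 and 765), with the 2-fold minimum (806 higher), in the fit with WT libraries (2474 higher) and, chosen after seeing the data, without distal 4 and proximal 2 (494 and 402). Leaving out 1 library gave 671 to 1831 higher and 557 to 1843 lower, with proximal replicates 1 and 2 as the lowest. With a replicate block the T/T counts were 264 and 281 and the WT counts 808 and 927, against 1784 and 1647. Deviations of same-numbered T/T libraries correlated at 0.0449 and -0.248. The deviations of 2 proximal libraries mirror each other, so these correlations cannot decide whether the libraries are paired. Distal replicate 1 had the Y-linked Ddx3y at 0 and proximal replicate 1 had it at 1470, so these 2 libraries do not share a mouse. No block on replicate number could be fitted for the null or for T/T minus null, since the null libraries used share no replicate numbers across segments. Their library names run in consecutive proximal and distal numbers, which no label calls pairs and which were not used as a block. The genotype difference T/T minus WT, 0 genes by limma, had 0 to 8 greater and 0 smaller when 1 library was left out, and 16 and 5 by DESeq2. T/T minus null, 1 gene, had 0 without the filter, 0 by edgeR, 11 and 18 by DESeq2, and 0 to 2 greater when 1 library was left out. The same step gave 900 to 1411 and 983 to 1573 in the WT littermates, 246 to 811 and 240 to 1171 in the null, and 433 to 697 and 356 to 946 in the WT of the null colony. The causes were not tested. Among 144 named genes under 19 alternatives (Reg3a under all but 1, where it fell below the filter), no called gene turned direction, 168 results lost a call and 17 gained one. The uncalled genes that turned were Slc26a3 (-0.20 to 0.28 without 1 library, 0.27 with Xist, 0.38 without distal 1 and 3, 0.048 in edgeR, 0.020 in DESeq2), Cbfa2t2 (-0.073 to 0.0073 without 1 library, 0.050 with Xist, 0.033 without distal 1 and 3) and Id4 (0.15 with Xist, 0.13 without distal 1 and 3). With 2 proximal libraries, small differences are the least certain.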

Other observations

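The 3 chains of complement C1q, made by macrophages, did not move together. C1qb and C1qc were higher in distal T/T crypts (2.33 and 2.60 on the log2 scale, adjusted p = 0.0043 and 0.0056 by limma), whereas C1qa was at 151, 75.7, 111 and 132 distally and at 252 and 230.1 proximally (-1.08, adjusted p = 0.043). C1qa lost its call without distal replicate 4. In the WT libraries of the null colony C1qa was also lower distally (57.9 and 52.5 against 153 and 147, adjusted p = 0.023), while C1qc stood at 35.0 and 35.3 against 0.84 and 2.02. In the WT littermates the C1qa difference did not pass the test (-0.44, adjusted p = 0.28). These genes were chosen after their values were seen.

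Among vessel markers, Vwf and Lyve1 were higher in distal T/T crypts (1.81 and 1.63, adjusted p = 0.00149 and 0.0127 by limma) and Pecam1 was lower (-1.38, adjusted p = 0.0131). Without proximal replicate 1 limma called 1 of them higher and 0 lower, and without proximal replicate 2 it called 2 and 0. The WT littermates had 1.94, 1.52 and -1.09 (adjusted p = 6.97e-05, 0.00426 and 0.0288). In the WT libraries of the null colony Vwf and Lyve1 were called (1.70 and 1.19, adjusted p = 0.00965 and 0.0414) and Pecam1 was not (-1.01, adjusted p = 0.292), and in the null libraries none was (0.81, 1.20 and -1.38, adjusted p = 0.283, 0.0855 and 0.144).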
